A study of Peromyscus polionotus with 11 samples.

Results

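Astrocytes are the glial cells that take up glutamate and potassium from the space around synapses, form the end-feet on blood vessels and pass metabolites to each other through gap junctions. They clear glutamate with the transporters encoded by Slc1a2 and Slc1a3 and convert it to glutamine with the enzyme encoded by Glul. In the preoptic area and the bed nucleus of the stria terminalis they surround neurons that carry receptors for sex steroids, and astrocytes of the preoptic area are known to change shape in response to gonadal steroids in rodents. The 10 genes described here, Gfap, Aqp4, Slc1a2, Slc1a3, Gja1, Glul, Aldoc, Apoe, Clu and Mlc1, were taken as a fixed list of astrocyte genes. All 10 of them, out of 12393 genes that carry a single symbol on the array, were represented, by 24 of 22626 probe sets. A probe set is a group of short oligonucleotides that together measure 1 transcript.

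The animals were oldfield mice (Peromyscus polionotus), North American relatives of the deer mouse, held in long or short days. Total RNA of punched brain tissue was hybridised to the arrays, and the question was whether day length alters expression in the 2 nuclei. The medial preoptic area (MPOA), a hypothalamic region for sexual and parental behaviour, gave 3 long-day samples, numbered 1 to 3, and 3 short-day samples, numbered 4 to 6. The bed nucleus of the stria terminalis (BNST), which links the amygdala to the hypothalamus, gave 3 long-day samples (1 to 3) and 2 short-day samples (4 and 5). No genetic modification, drug, sex or age is named in the labels for any of the 4 groups, and nothing there says whether a punch came from 1 animal or from several, so that the p-values measure the spread between these samples. A micropunch holds all cell types of the tissue, and fewer astrocytes cannot be told apart from less astrocyte RNA per cell.

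The authors deposited linear intensities, with a median of 19 on each of the 11 arrays. The probes were designed for the house mouse, and the effect of sequence differences on a probe set is unknown, so each probe set was compared with itself across samples and set beside the array median, never beside another probe set. The short-day MPOA sample 6 stood apart from the rest on the first principal component of all probe sets, at -31.2 against -6.63 to 25.4 for the other samples. MPOA differences without this sample are given beside those with it where they changed sign or moved by over 1.5 times. Differences were tested with limma across all 22626 probe sets, with Benjamini-Hochberg adjustment and a threshold of 0.05.

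Of the 10 genes, 7 had a probe set above the array median on every array: Gfap, Slc1a2, Slc1a3, Gja1, Glul, Apoe and Clu. For the other 3, the water channel gene Aqp4, the glycolytic enzyme gene Aldoc and Mlc1, which encodes a membrane protein of astrocyte end-feet, no probe set did so. Of the 24 probe sets, 11 lay above the median on all 11 arrays and 10 lay at or below it on all 11, and the share above it on all arrays was 36.8% over all probe sets. Over all genes 46.3% had a probe set above the median on all arrays. A signal above the median does not tell which cells it came from. Aqp4, Aldoc and Mlc1, which brain astrocytes normally express strongly, read mostly at or below the array median. How far the median lies above the background of these arrays was not measured. Values are whole numbers, and going from the median to the next one is already a log2 difference of 0.07.

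**Figure D1:**
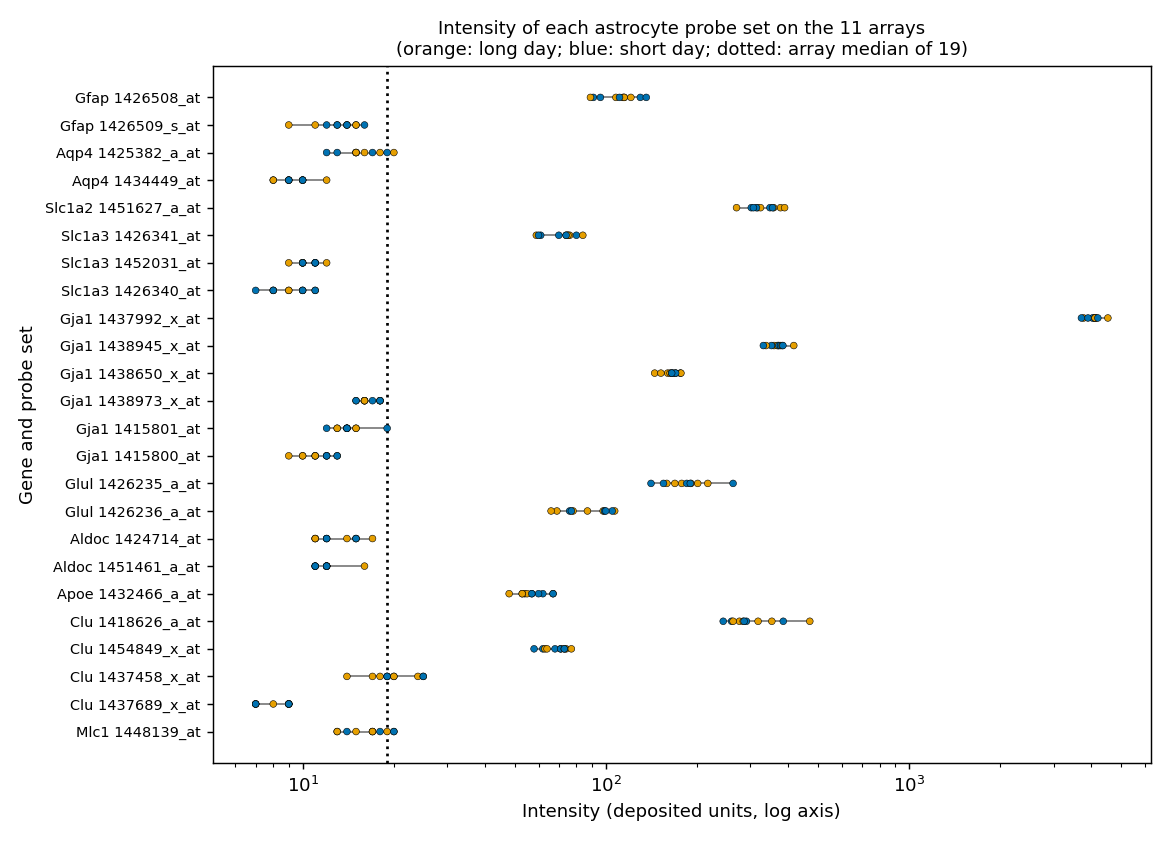
Intensity of each of the 24 astrocyte probe sets on the 11 arrays, on a log axis, with long-day samples in orange, short-day samples in blue and the array median of 19 as a dotted line. A gene can have probe sets far above the line and others below it, as Gja1 does with 3 of each, whereas both Aldoc probe sets stay below it.

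The probe sets of single genes differed in where they lay relative to the array median. Gja1 encodes connexin 43, the main gap junction protein of astrocytes. It had 6 probe sets, 3 above the median on all arrays and 3 at or below it on all arrays. The 3 bright ones (1437992_x_at, 1438945_x_at and 1438650_x_at) carry a name ending that marks probes with a possible match to further transcripts, so that their signal may not come from Gja1 alone. Slc1a3 had 1 of 3 probe sets above the median on all arrays, Clu 2 of 4, Glul 2 of 2 and Gfap 1 of 2. Apoe and Slc1a2 are each measured by 1 probe set. For each gene the values below are those of its brightest probe set unless another is named.

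No astrocyte probe set passed the test between short and long days in either nucleus. In the MPOA 0 of 24 passed, and 0 had an unadjusted p under 0.05; over all probe sets 0% passed and 3.5% had such a p. In the BNST 0 of 24 passed and 0 had an unadjusted p under 0.05, against 0.0442% and 12.7% of all probe sets. The largest differences among the 11 bright probe sets lay at -0.16 and 0.15 on the log2 scale in the MPOA and at -0.23 and 0.31 in the BNST. Averaged over both nuclei 0 of 24 passed and 0 had an unadjusted p under 0.05, against 0.0133% and 9.02% of all probe sets. The 95% intervals of all 11 bright probe sets included 0 in both nuclei, and differed in width. In the MPOA the lowest limit was 1.42-fold lower (Clu) and the highest 1.35-fold higher (Glul). In the BNST the lowest was 1.59-fold lower (Clu) and the highest 1.58-fold higher, for the second Glul probe set, 1426236_a_at.

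**Figure D2:**
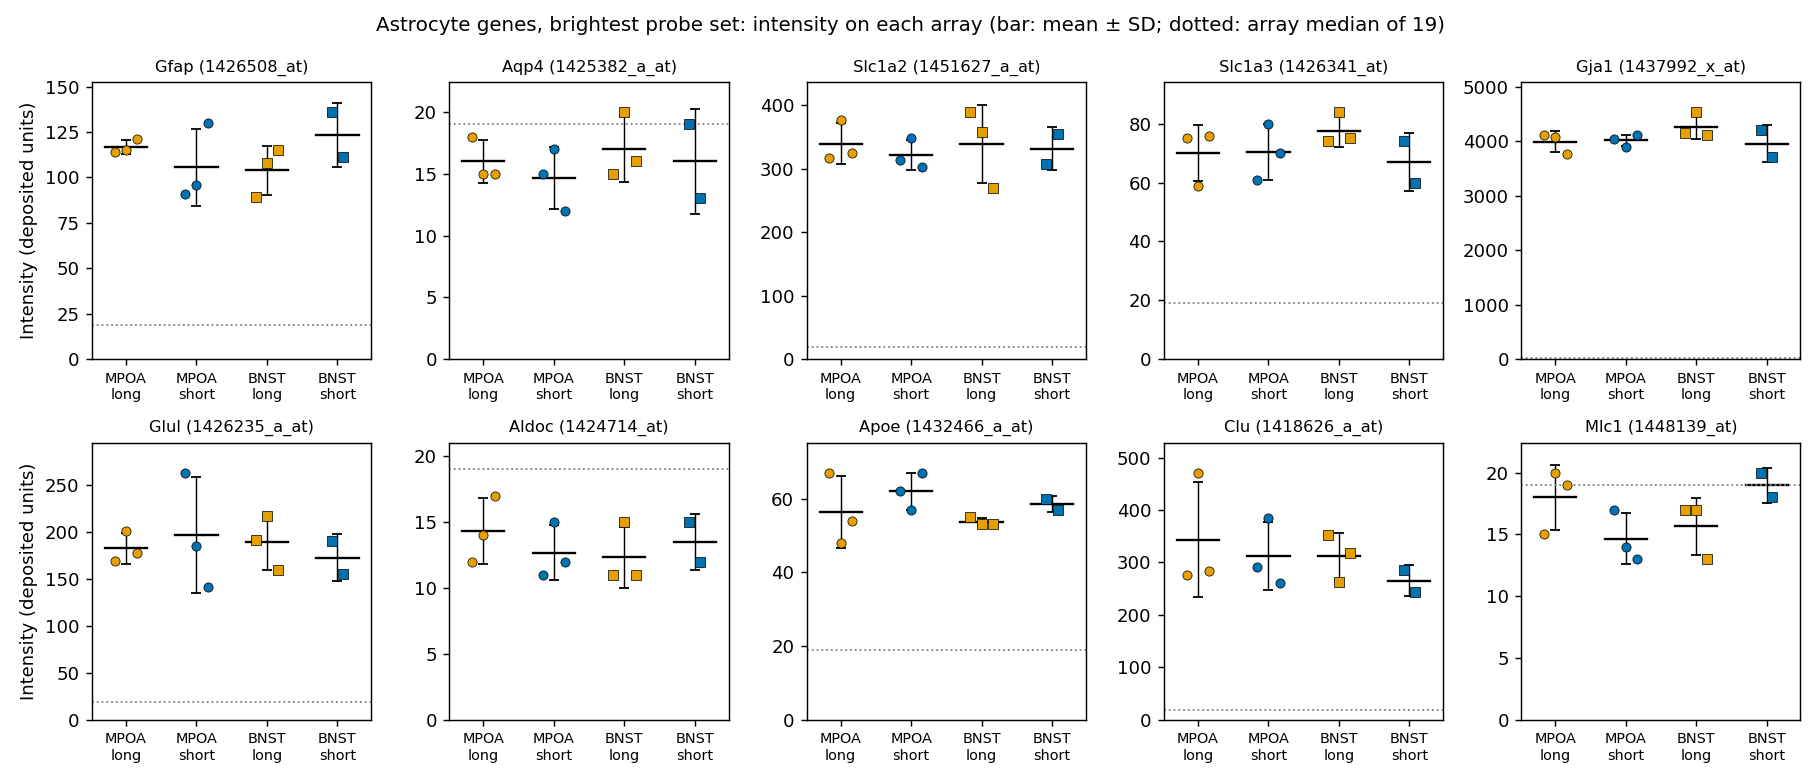
Intensity of the brightest probe set of each of the 10 astrocyte genes in the medial preoptic area (MPOA) and the bed nucleus (BNST) in long days (orange) and short days (blue), with 1 point per sample, the group mean and SD as bars, and the array median of 19 dotted. The groups overlap in nearly all panels; the exceptions between day lengths are Apoe and Mlc1 in the BNST, where both short-day samples lie above the 3 long-day samples.

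Slc1a2 encodes GLT-1, which carries most glutamate uptake in the forebrain. Long-day MPOA samples read 317, 377 and 324, and short-day ones 314, 348 and 302. Long-day BNST samples read 389, 358 and 270, and short-day ones 307 and 355. All 4 groups overlapped, and the short minus long day difference was -0.08 ± 0.14 (SE) in the MPOA and -0.02 ± 0.16 in the BNST on the log2 scale. The MPOA value was -0.03 without sample 6. The sign was not stable in the BNST, where the difference was 0.13 after quantile normalization. Slc1a3 encodes GLAST, the transporter of radial glia and of cerebellar astrocytes, and is expressed at a lower level in the forebrain. Its MPOA values were 75, 59 and 76 under long and 61, 80 and 70 under short days (0.01 ± 0.14). In the BNST they were 74, 84 and 75 against 74 and 60 (-0.22 ± 0.16, 95% interval -0.55 to 0.12). The short-day BNST sample 5 was the lowest of its nucleus, and sample 4 matched the lowest long-day sample.

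Glul encodes glutamine synthetase, which turns the glutamate taken up by astrocytes into glutamine. Its brighter probe set, 1426235_a_at, read 169, 201 and 178 in long-day and 263, 185 and 141 in short-day MPOA samples. The highest and the lowest of the 11 values were both found among the short-day MPOA samples, 4 and 6, and the group SD was 61.8 there against 16.5 in long days. The day-length difference was 0.06 ± 0.18 in the MPOA, 0.28 without sample 6 and -0.17 without sample 4. In the BNST the same probe set read 191, 217 and 159 against 190 and 155 (-0.13 ± 0.20; 0.02 after quantile normalization). The second Glul probe set, 1426236_a_at, read 69, 78 and 66 against 100 and 77 in the BNST, a difference of 0.31 ± 0.17 (adjusted p = 0.452, limma) with groups that overlapped only through the values 77 and 78. In the MPOA it read 107, 98 and 87 against 105, 99 and 76 (-0.07 ± 0.15, and 0.07 without sample 6). The 2 probe sets of this gene thus gave differences of opposite sign in each nucleus, none of them past the threshold.

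Gfap encodes glial fibrillary acidic protein, the intermediate filament that rises in reactive astrocytes. It read 114, 115 and 121 in long-day MPOA samples and 91, 96 and 130 in short-day ones. Samples 4 and 5 lay below and sample 6 above all long-day values, giving -0.16 ± 0.15, or -0.32 without sample 6. In the BNST Gfap read 89, 108 and 115 against 136 and 111, a difference of 0.25 ± 0.17 (adjusted p = 0.564, limma). The second Gfap probe set lay at 9 to 16 on all arrays, under the median. The day-length effect in the BNST minus that in the MPOA was 0.41 ± 0.22 for Gfap (adjusted p = 0.652, limma; 0.57 and 0.355 without sample 6). It did not pass.

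Gja1 varied least of the bright genes. Its brightest probe set read 4112, 4079 and 3769 under long against 4030, 3897 and 4108 under short days in the MPOA (0.01 ± 0.12, and -0.0075 without sample 6). In the BNST it read 4147, 4533 and 4110 against 4200 and 3708 (-0.11 ± 0.13). The highest value stood only 1.22 times over the lowest across the 11 arrays. The long-day BNST sample 2 gave the highest value of all 3 bright Gja1 probe sets. The residual SD within groups was 0.08 on the log2 scale for the brightest probe set, smaller than that of all but 3.18% of the 8324 probe sets above the median on all arrays, whose median was 0.16. Such a high signal may lie near the top of the range in which an array still responds, which was not tested.

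Mlc1 and Aqp4 act with Gja1 at the astrocyte end-foot, Mlc1 in volume and chloride regulation and Aqp4 in water transport. In the MPOA Mlc1 read 15, 20 and 19 against 17, 14 and 13 under short days, and in the BNST 17, 17 and 13 against 20 and 18. Its day-length differences had opposite signs, -0.29 ± 0.15 in the MPOA and 0.29 ± 0.17 in the BNST. Their difference was 0.58 ± 0.23, with an unadjusted p of 0.0183 and an adjusted p of 0.531 (limma). Mlc1 was the only probe set of the 24 with an unadjusted p under 0.05 in that comparison, against 8.34% of all probe sets, and 0 of 24 passed, against 0%. Of its 11 values 9 lay at or below the array median. The brighter Aqp4 probe set read 12 to 20 over the 11 samples (-0.13 ± 0.16 in the MPOA, 0.0026 without sample 6, and -0.10 ± 0.18 in the BNST) and the other 8 to 12. For both genes a few intensity units make up the whole difference.

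Apoe and Clu encode apolipoprotein E and clusterin (apolipoprotein J), lipid carriers that astrocytes secrete. Apoe is made by microglia too, and Clu by ependymal cells and some neurons. In the MPOA Apoe read 67, 48 and 54 against 62, 57 and 67 under short days (0.15 ± 0.13, and 0.09 without sample 6). In the BNST it read 55, 53 and 53 against 60 and 57, a difference of 0.12 ± 0.15 whose groups did not overlap. Apoe and Mlc1 were the 2 of 24 probe sets with separate day-length groups in the BNST, where 23.7% of all probe sets had them; in the MPOA 0 of 24 did, against 5.19%.

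In the MPOA Clu read 276, 471 and 284 against 291, 385 and 260 under short days, and 353, 263 and 318 against 286 and 244 in the BNST. The long-day MPOA sample 2 was the highest of all samples, and without it the MPOA difference of -0.11 ± 0.19 became 0.14; without the short-day sample 6 it was 0.0075. In the BNST the difference was -0.23 ± 0.21. The residual SD of this probe set, 0.31 on the log2 scale, was larger than that of 96.2% of the probe sets above the median on all arrays. The second bright Clu probe set, 1454849_x_at, whose name ending marks a possible match to further transcripts, gave -0.14 ± 0.13 in the MPOA. Its highest value was also in the long-day MPOA sample 2, though close to the next (77, against 58 to 74 in the other 10). The last gene of the list, Aldoc, encodes aldolase C, the brain form of a glycolytic enzyme. Its probe sets read 11 to 17 and 11 to 16 over the 11 arrays.

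Nor did any astrocyte probe set pass between the nuclei. Between the BNST and the MPOA, averaged over day lengths, 0 of 24 probe sets passed with limma, against 1.03% of all probe sets, and 1 had an unadjusted p under 0.05, against 11.9%. That probe set was Glul 1426236_a_at, which was lower in the BNST by a mean log2 difference of -0.26 ± 0.11 (95% interval -0.50 to -0.03, adjusted p = 0.336, limma). Its long-day BNST samples, at 66 to 78, lay below all long-day MPOA samples, at 87 to 107, while the short-day groups overlapped. The brighter Glul probe set did not show this (-0.05 ± 0.14). Gfap was at 0.03 ± 0.11, Slc1a2 at 0.01 ± 0.11 and Clu at -0.16 ± 0.14, with -0.10 ± 0.10 for its second bright probe set. For the 11 bright probe sets the 95% intervals reached from 1.41-fold lower to 1.20-fold higher in the BNST. The number of probe sets whose BNST and MPOA samples did not overlap was 0 of 24, against 1.47% of all probe sets.

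**Figure D3:**
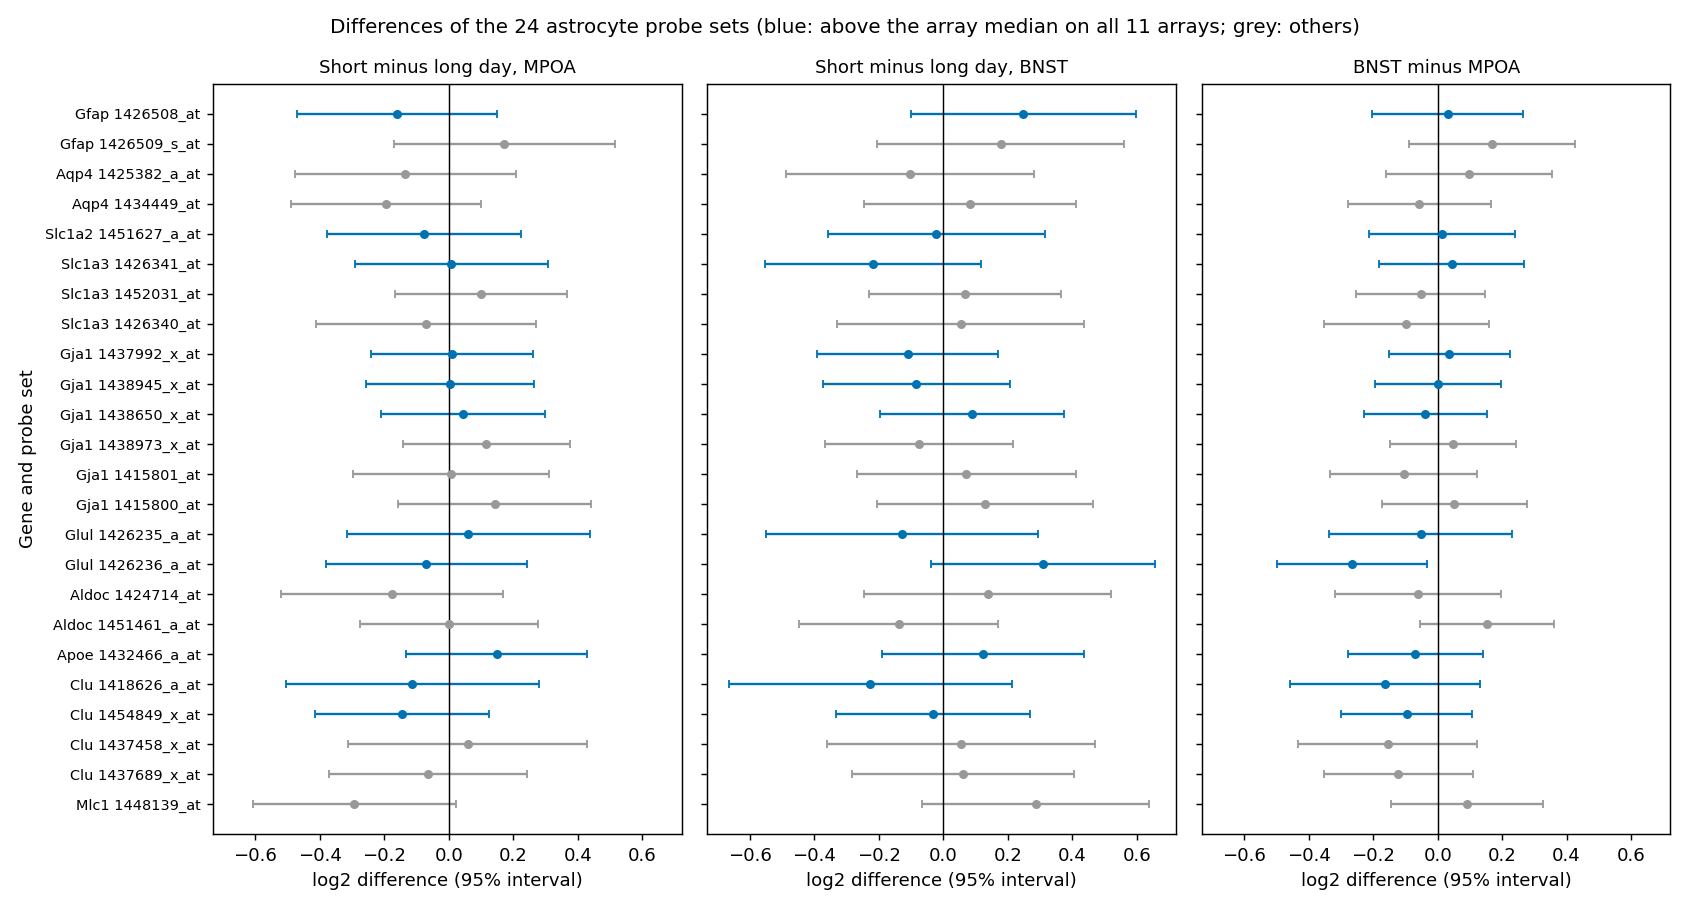
The log2 difference of each of the 24 astrocyte probe sets with its 95% interval, for short minus long days in the MPOA and in the BNST and for BNST minus MPOA, with probe sets above the median on all 11 arrays in blue and the others in grey. All intervals include 0 except that of Glul 1426236_a_at between the nuclei, which did not pass after adjustment.

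When the 4 groups were ranked by mean intensity, neighbouring groups in that order overlapped for 23 of the 24 probe sets. This was not counted over all probe sets, so it does not set the astrocyte genes apart. The 1 probe set without such overlap was the brightest of Gja1. Its long-day BNST samples (4110 to 4533) lay just above the short-day MPOA samples (3897 to 4108), though not above the long-day MPOA samples. The order was not the same from gene to gene. Short-day BNST samples ranked first for Gfap and Mlc1 and last for Slc1a3, Gja1, the brighter Glul probe set and Clu. Over the 7 bright genes, taking each gene's log2 level minus its own mean, the samples ranged from -0.12 (short-day BNST sample 5) to 0.07 (long-day MPOA sample 2), and the 4 group means from -0.04 to 0.02. The short-day MPOA sample 6, apart on the principal component, was at -0.04, inside that range. In size, the day-length differences of the bright astrocyte probe sets had a median of 0.07 without regard to sign in the MPOA, against 0.08 for all probe sets above the median on all arrays. The same medians were 0.12 and 0.15 in the BNST, and 0.04 and 0.10 between the nuclei.

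The 3 genes of the list whose brightest probe set varied most over the 11 arrays were Clu, Glul and Mlc1, with SDs of 0.28, 0.25 and 0.23 on the log2 scale. The genes with the most similar profile, by root mean square distance between centred log2 values over the 11 arrays among 7467 or 7468 genes, were Csnk2a2, a subunit of casein kinase (distance 0.09), Ssr4, a protein of the secretory translocon (0.11), and Rpl37a, a ribosomal protein (0.11), for Clu, where the median distance was 0.31. Csnk2a2 shared the peak in the long-day MPOA sample 2 (444, against 281 to 392 in the other samples). For Glul they were Mcrip2 (0.08), the growth factor Fgf1 (0.11) and Cblc (0.12), with a median distance of 0.28. Mcrip2 was highest in the short-day MPOA sample 4 and lowest in sample 6, as Glul was. Such likeness, as that of Csnk2a2 to Clu, follows from choosing the genes by distance to these same values. For Mlc1 they were Nckap1 (0.11), Dhx57 (0.11) and Lman2 (0.12), with a median distance of 0.28.

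Related genes were described from 6 lists, with the brightest probe set per gene. Among 31 measured further astrocyte genes, 0 passed between day lengths in the MPOA (0% of the brightest probe sets of all genes) and 0 in the BNST (0.0646%). Unadjusted p-values under 0.05 were found for 3 and 5 of them, against 3.49% and 13.2% of all genes. Of all 6 lists none passed for the mean of both nuclei (0.0161% of all genes, and 9.04% with an unadjusted p under 0.05) or for the difference between the day-length effects (0%, and 8.79%). Such a p was found for 3 and 3 of the 31. For 11 lipoprotein genes the counts were 2 and 1, and for 19 reactive genes 4 and 2. Among the 31 the smallest p for the mean belonged to Pla2g7, at 0.34 ± 0.09 (adjusted p = 0.369, limma). In the MPOA Pla2g7 read 19, 18 and 19 under long against 24, 25 and 20 under short days. Its BNST values were 15, 17 and 15 against 21 and 20. Between the nuclei 7 of the 31 had an unadjusted p under 0.05, against 12.4% of all genes, and 1 passed, against 1.26%. This was Slc7a10, which encodes Asc-1, a transporter of glycine, D-serine and other small neutral amino acids. MPOA samples read 43, 52 and 56 under long and 52, 56 and 55 under short days. BNST samples read 39, 33 and 39, and 40 and 36. All BNST samples lay below all MPOA samples, with a difference of -0.48 ± 0.10 (adjusted p = 0.0215, limma). The call was lost when any of 6 single arrays was left out, long-day MPOA 2 or 3, short-day MPOA 5, long-day BNST 2 or short-day BNST 4 or 5, with adjusted p-values up to 0.127 (limma) and differences from -0.53 to -0.44. Aldh1l1, a folate enzyme used as an astrocyte marker, was at -0.29 ± 0.11, Sox9, a glial transcription factor, at 0.27 ± 0.10, and the matrix proteoglycan gene Bcan at 0.34 ± 0.12, all short of the threshold (adjusted p 0.252, 0.239 and 0.226, limma). Leaving out 1 array moved Aldh1l1 between -0.41 and -0.18 and Bcan between 0.19 and 0.49, the ends reached by leaving out short-day BNST sample 4 or 5.

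Of 10 measured genes of the glutamate-glutamine cycle, 0 passed in any of the 5 comparisons, and 2 had an unadjusted p under 0.05, both between the nuclei, where 12.4% of all genes did. The smallest unadjusted p between the nuclei belonged to Glud1, the mitochondrial glutamate dehydrogenase, at -0.31 ± 0.10 (adjusted p = 0.170, limma). Of 11 genes of water, potassium and gap junction handling 0 passed. An unadjusted p under 0.05 was found for 4 of them in the mean of both nuclei (9.04% of all genes), the water channel genes Aqp1 and Aqp9, the dystroglycan gene Dag1 and Gjb6, which encodes another astrocyte connexin; Aqp1 and Dag1 were below 0, and Aqp9 and Gjb6 above it. It was found for 1 in the MPOA (3.49%), for 1 in the BNST (13.2%) and for 0 in the other 2 comparisons. In the BNST 6 of the 11 were higher and 5 lower, among them Gjb6 at 0.30 ± 0.14 and Dag1 at -0.27 ± 0.13, or -0.13 after quantile normalization (adjusted p 0.378 and 0.410, limma). Over the 11 arrays Gjb6 read 8 to 11, Aqp1 10 to 21 and Aqp9 14 to 23, so that a few intensity units make up their differences. Of 15 genes of glycolysis and glycogen 0 passed, and an unadjusted p under 0.05 was found for 3 between the nuclei (12.4% of all genes), 1 in the BNST (13.2%) and 1 for the difference between day-length effects (8.79%). Among 11 genes of lipoprotein handling, 10 were lower in short-day BNST samples, where 55.2% of all genes were lower, and 64.6% of the genes whose brightest probe set lay above the median on all arrays, as 9 of these 11 did. The list's median was -0.07, against -0.03 for all genes and -0.07 for all probe sets above the median on all arrays. In that comparison 0 passed and 3 had an unadjusted p under 0.05, against 13.2% of all genes.

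Between the nuclei 1 gene of lipoprotein handling passed (1.26% of all genes), Vldlr, a receptor for apolipoprotein E and reelin. With its probe set 1434465_x_at, MPOA samples read 689, 755 and 812 under long and 627, 564 and 431 under short days. BNST samples read 1224, 1048 and 853, and 945 and 932. All BNST samples lay above all MPOA samples, by 0.64 ± 0.12 (adjusted p = 0.00762, limma), and the call was lost without the short-day BNST sample 5 (adjusted p = 0.0565, limma). The other 3 Vldlr probe sets read 12 to 22 and did not pass, and the name of the bright one marks a possible match to several transcripts. Oligodendrocyte markers were also higher in the BNST, in 7 of 7 measured genes (51.1% of all genes), 5 of them with an unadjusted p under 0.05 (12.4% of all genes) and 0 past the threshold. Their mean centred log2 level was -0.49 to 0.05 in MPOA and -0.11 to 0.57 in BNST samples. Of 10 measured neuronal markers 4 were higher and 6 lower in the BNST (48.9% of all genes were lower). An unadjusted p under 0.05 was found for 3 of them (12.4% of all genes), and 0 passed. These were Nefl at -0.41 ± 0.11, Map2 at -0.28 ± 0.10 and Stmn2 at -0.23 ± 0.11. The part of oligodendrocytes and neurons in the differences of Slc7a10 and Vldlr was not tested.

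Of 19 measured genes of reactive astrocytes, 1 passed, Vim, and it did so in 2 comparisons. These were day length in the BNST, where 0.0646% of all genes passed, and BNST against MPOA, where 1.26% did. Vim encodes vimentin, an intermediate filament that reactive astrocytes share with ependymal cells, tanycytes and vessel cells. Probe set 1450641_at read 128, 164 and 169 in long-day and 71 and 66 in short-day BNST samples, a difference of -1.16 ± 0.20 (adjusted p = 0.0407, limma), and 44 to 75 in the MPOA. It was higher in the BNST by 0.96 ± 0.13 over both day lengths (adjusted p = 7.1e-04, limma). The day-length difference stayed between -1.28 and -1.06 in 18 alternatives, and the call was lost in 11 of them, among them the fit on the BNST arrays alone (adjusted p = 0.373, limma) and each fit without 1 of 8 single arrays. These were the MPOA arrays 1 to 4 and the BNST arrays 2 to 5. The call between the nuclei was kept in all 18. The day-length difference in the BNST was negative for all 3 Vim probe sets, the others at -0.76 and -0.49 without passing. The probe set at -0.76 read 79, 94 and 94 in long-day against 54 and 51 in short-day BNST samples. For the one at -0.49 these groups overlapped, with 115, 155 and 134 against 135 and 67, and only short-day sample 5 was low. All 3 Vim probe sets passed between the nuclei, the others at 1.05 and 1.36.

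Gfap, also an intermediate filament of reactive astrocytes, had another order of groups than Vim. The short-day BNST samples had the highest Gfap mean of the 4 groups, 124 ± 17.7 (SD, n = 2), whereas their Vim mean lay below that of the long-day BNST samples. Nes, which encodes the filament nestin, had its highest mean in long-day BNST samples, 25.7, against 25 in long-day MPOA samples. Its short minus long day difference was -0.31 ± 0.11 for the mean of both nuclei (adjusted p = 0.458, limma). Of the 19 reactive genes 10 were higher and 9 lower in short-day BNST samples. In that comparison 3 of the 19 had an unadjusted p under 0.05, against 13.2% of all genes. Besides Vim, these were Osmr, the oncostatin M receptor, at 0.45 ± 0.15 (0.28 to 0.62 with 1 array left out), and Lcn2, lipocalin 2, at -0.35 ± 0.15 (adjusted p 0.220 and 0.348, limma). Osmr read 12 to 19 and Lcn2 11 to 15 over the 11 arrays, at or below the array median of 19. Of 6 measured markers of ependyma and choroid plexus, 5 had lower values in short-day BNST samples (55.2% of all genes), 3 with an unadjusted p under 0.05 (13.2% of all genes), and 0 passed; their mean centred log2 level was 0.07 to 0.28 in long-day and -0.19 to -0.03 in short-day BNST samples. Of these 6 markers 1 was above the array median on all arrays. Of the 5 tanycyte markers other than Vim, 5 had lower values (55.2% of all genes) and 0 an unadjusted p under 0.05 (13.2%). Of 14 vessel markers 10 had lower values (55.2% of all genes), 3 had an unadjusted p under 0.05 (13.2%), and 0 passed. The mean level of the vessel markers was 0.04 to 0.17 in long-day and -0.15 to 0.07 in short-day BNST samples. Between the nuclei 0 of the 5 tanycyte markers other than Vim were lower in the BNST (48.9% of all genes). Of the ependyma and choroid plexus markers 5 of 6 were higher there, and of the vessel markers 9 of 14 (51.1% of all genes). In each of these 3 lists 1 marker had an unadjusted p under 0.05 (12.4% of all genes). The part of these cells in either Vim result was not tested.

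**Figure D4:**
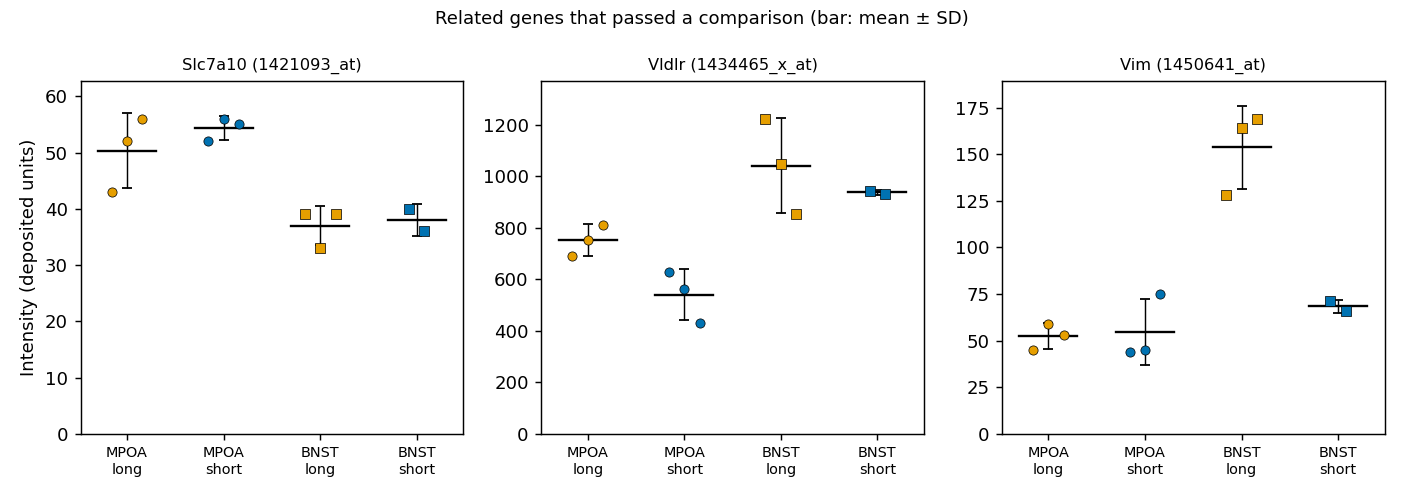
Intensity of the 3 related genes that passed a comparison, with 1 point per sample and the group mean and SD as bars. Slc7a10 is lower and Vldlr higher in all BNST samples than in all MPOA samples, and Vim is highest in the 3 long-day BNST samples (128 to 169).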

How the data were processed

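RMA version 3.4 is named in the submitters' processing notes. The values the authors deposited are whole-number intensities, linear and with 1 median for all arrays; how they were scaled is unknown. Of 22690 probe sets, 64 controls were set aside. Of the 22626 tested, 20380 carry 1 gene symbol in the platform annotation, 691 several and 1555 none; symbols can be old. 

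For 5 comparisons, 4 group means were fitted to log2 intensities with no pseudocount, over all 11 arrays (limma 3.58.1, R 4.3.3, moderated with eBayes, 7 residual and 12.9 prior degrees of freedom). Tests were two-sided. The procedure was tested on simulated arrays. The genes, the lists and the tests were chosen with earlier results of these data known. All probe sets of the 10 genes were named; from the lists, genes that passed and up to 4 per list and comparison by smallest p, beside 8 lists of markers of other cells. The 3 closest profiles were named for the 3 most variable genes. The list genes given are a selection from these. Samples were not paired between the nuclei. No 2 arrays held identical values.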

Additional observations from a re-analysis of the deposited data

How the results depend on the processing

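No astrocyte probe set passed in the comparisons that each alternative gave. Among these were quantile normalization, the brighter probe sets alone, arrays centred on the median of brighter probe sets, and a trended and robust prior. A threshold of 0.10 and 1 probe set per gene were others. The arrays of a nucleus alone gave its day-length comparison only. A block on the sample number gave the comparisons between the nuclei and between the day-length effects only. Each of 11 arrays was also left out. The lowest adjusted p of any astrocyte probe set over these settings was 0.157 (Glul 1426236_a_at between the nuclei, without the short-day MPOA sample 6, limma). With the replicate block, for which the labels give no basis beyond the shared number and whose 5 pairs deviated from their group means with r of only -0.03 to 0.07, 225 of all probe sets passed between the nuclei against 233, and Slc1a2 changed from 0.01 to -0.0080. In that fit the short-day MPOA sample 6, whose number no BNST sample shares, does not bear on the differences.

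Of 512 recomputed astrocyte values 34 changed sign, 29 of them with an array left out; the cause was not tested. Quantile normalization gave 0.13 for Slc1a2 and 0.022 for Glul in the BNST, where it raised the bright astrocyte probe sets by a median of 0.13 and all probe sets above the median by 0.07. Centring gave 0.0067 for Slc1a2 in the BNST and -0.0074 between the nuclei. With 1 array left out, the MPOA difference ranged from -0.25 to 0.0026 for Aqp4, -0.14 to 0.0012 for Slc1a2, -0.11 to 0.11 for Slc1a3, -0.030 to 0.033 for Gja1, -0.17 to 0.28 and -0.16 to 0.072 for the Glul probe sets, and -0.28 to 0.14 for Clu. The BNST difference ranged from -0.38 to 0.17 for Aqp4, -0.18 to 0.087 for Slc1a2 and -0.27 to 0.019 for Glul, and that between the nuclei from -0.042 to 0.11 for Gfap, -0.040 to 0.092 for Slc1a2 and -0.16 to 0.064 for Glul. Over all probe sets, the 10 that passed in the BNST became 30 at a threshold of 0.10, 0 with the BNST arrays alone and 0 to 38 with 1 array left out. The 233 between the nuclei became 402 at 0.10 and were as few as 70 with 1 array left out, and the 3 for the mean of both nuclei became 1 with brighter probe sets alone. Signals mostly at or below the array median limit what can be said of Aqp4, Aldoc and Mlc1, and the 2 short-day BNST samples limit that group.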

Other observations

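Markers of the other cell types in the punches were measured beside the astrocyte genes. Neuronal markers had lower values in short-day BNST samples in 8 of 10 genes, against 55.2% of all genes. The share was 64.6% for genes whose brightest probe set lay above the median on all arrays, as 9 of these 10 did. An unadjusted p under 0.05 was found for Map2, a dendritic microtubule protein, at -0.60 ± 0.16, and for Eno2, neuronal enolase, at 0.46 ± 0.19 (0.15 to 0.77 with 1 array left out), against 13.2% of all genes, and 0 passed with limma. Eno2 read 11 to 23 over the 11 arrays, around the array median of 19. Microglial (11 measured), vascular (14), leptomeningeal (7) and red cell markers (2) gave 0 that passed in any of the 5 comparisons with limma. At an unadjusted p under 0.05 there were 0 microglial and 0 red cell markers in each comparison. In the BNST there were 3 vascular and 2 leptomeningeal ones (13.2% of all genes), in the MPOA 1 and 1 (3.49%), for the mean of both nuclei 3 and 0 (9.04%), for the difference between day-length effects 3 and 2 (8.79%), and between the nuclei 1 and 0 (12.4%).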
